A study of Mus musculus with 6 samples.

Results

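The genes of immunoglobulin-type cell adhesion molecules and Cd44 were followed in D4M-3A cells, a cell line grown from a mouse melanoma. They were Icam1, Vcam1, Alcam, Mcam, L1cam, Ncam1, Nrcam and Cd44. These 8 genes were taken by symbol from the 43043 genes listed for each sample, and all 8 were found. RNA was sequenced from 3 control samples (Ctrl), which carried the CRISPR-Cas9 construct without an insert, and from 3 Nfkbiz knockout samples (Nfkbiz KO), transduced with a construct against Nfkbiz. Nfkbiz encodes IκBζ, a nuclear partner of NF-κB that can raise or lower the transcription of its target genes. All cells were grown in RPMI-1640 medium with serum. The methods list CRISPR constructs against the gene and selection with puromycin, without saying which construct went into D4M-3A cells or whether the cells were clonal. The control construct is described as empty, so cutting by Cas9 and the loss of IκBζ cannot be told apart. The comparison asks how the RNA of these adhesion genes differed between melanoma cells with and without an intact Nfkbiz gene.

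Cell adhesion molecules of the immunoglobulin type hold cells together through stacked extracellular domains. Some bind a copy of themselves on the next cell, as ALCAM, NCAM1 and L1CAM can, and others bind integrins, as ICAM1 and VCAM1 do when leukocytes attach to endothelium. CD44 is built differently and binds hyaluronan, a long sugar polymer of the matrix. Icam1 and Vcam1 are textbook NF-κB target genes, and MCAM was first described on melanoma cells.

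Between 32219900 and 44927203 reads per sample were counted on genes, and 14419 genes passed the filter on low counts and were tested. Nfkbiz itself was lower in the knockout samples by edgeR, at a log2 fold change of -0.98, which counts edited and intact transcripts alike. The labels name the cells melanoma cells, yet 8 listed markers of the melanocyte lineage had low levels. Of these 8, 7 stayed below 1 TPM in every sample, and Sox10 and Tyr had 0 reads. Mitf, the exception, had at most 1.21 TPM. Other genes of this lineage were not looked at here. TPM is the authors' level of a gene's transcripts, corrected for transcript length and depth. The summed level of the 8 markers was 1.13 to 1.74 TPM in Ctrl and 1.40 to 1.68 TPM in Nfkbiz KO. Among the Ctrl samples 7 leukocyte markers, of which 5 were below 1 TPM, summed to 16.0 to 17.9 TPM, against 17.3 to 20.2 TPM among knockout samples. Most of this was Cd14 alone, with means of 14.6 (Ctrl) and 15.4 TPM (knockout). Cd68 followed with 2.19 and 3.16 TPM, and neither gene passed the test. Ptprc had at most 0.0304 TPM in any sample, and Cd3e had 0 reads. For 7 endothelial markers, of which 5 were below 1 TPM, the sum was 2.39 to 3.82 and 3.21 to 3.70 TPM, and Tie1 had 0 reads. For 6 fibroblast markers it was 429 to 495 and 341 to 375 TPM, with Lum and Thy1 below 1 TPM. Of the 4 tested, Col1a1 fell from 367 to 263 TPM and Dcn from 14.98 to 9.38 TPM (means), whereas Pdgfra (36.7 and 39.5 TPM) and Pdgfrb (46.6 and 51.5 TPM) did not pass the test. The samples were of a cultured cell line, not tissue, so these levels describe the RNA of the culture and count no cells of a type. Their part in the results was not tested. Bulk RNA cannot tell fewer cells with a transcript apart from less of it per cell.

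In Nfkbiz KO, 6 of the 8 adhesion genes changed, in opposite directions. Cd44, Vcam1 and Alcam, which were already the most abundant of the 8, rose. Ncam1, Mcam and Nrcam fell. Icam1 and L1cam lay close to the limit of detection in all 6 samples. Changed here means that edgeR, with quasi-likelihood, gave an adjusted p no higher than 0.05 (Benjamini and Hochberg, over every gene tested), a threshold that 36.6% of all genes passed. Of all genes, 18.2% passed as higher and 18.4% as lower. The groups did not overlap in log2 CPM for these 6 genes, as was the case for 48.4% of all genes tested (two-sided exact permutation test, p = 0.1 for each of the 6, the smallest p that 3 samples against 3 allow). L1cam did not pass the filter on low counts, so that 7 of the 8 were tested.

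**Figure D1:**
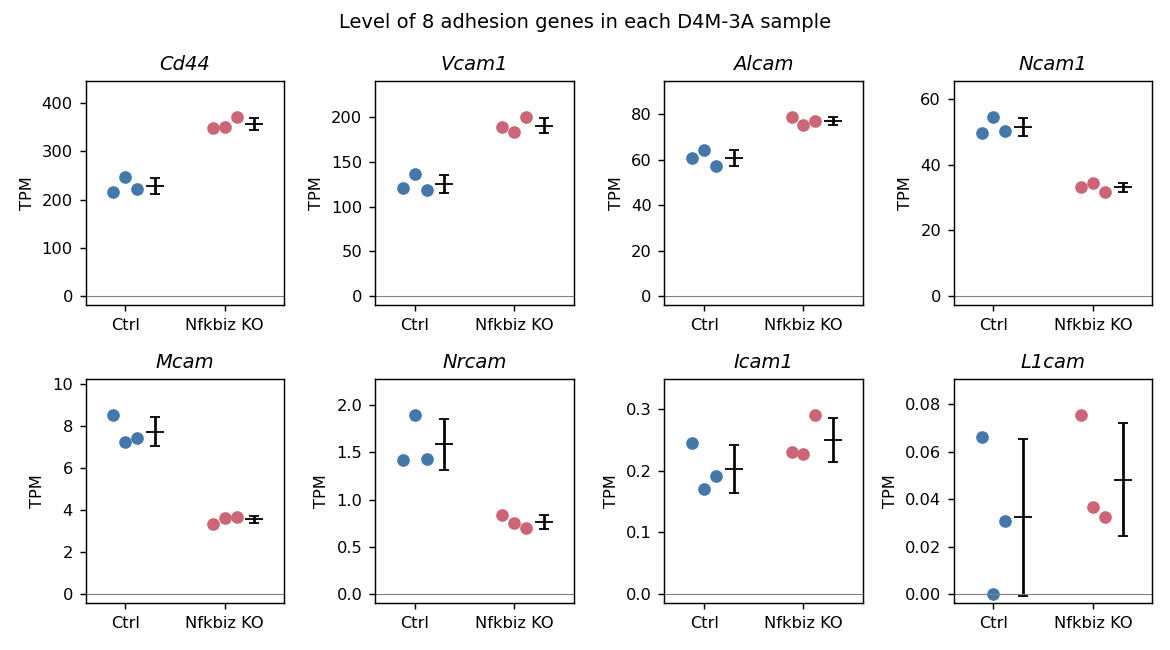
Level in TPM (vertical axis, a separate linear scale for each gene) of the 8 adhesion genes in the 3 Ctrl (blue) and 3 Nfkbiz KO (red) samples, with the mean and SD in black. Cd44, Vcam1 and Alcam lie higher in every Nfkbiz KO sample, Ncam1, Mcam and Nrcam lie lower, and the values of Icam1 and L1cam overlap and stay below 0.3 and 0.08 TPM.

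Cd44, which spans 102641486 to 102732010 of chromosome 2 (GRCm39, minus strand), encodes the hyaluronan receptor and had the highest level of the 8. It had 216, 246 and 221 TPM in Ctrl replicates 1, 2 and 3, against 349, 351 and 371 TPM in Nfkbiz KO replicates 1, 2 and 3. Every Nfkbiz KO sample was above every Ctrl sample. The mean rose from 228 ± 16.2 to 357 ± 12.2 TPM (SD, n = 3 each). From read counts, its log2 fold change was 0.54 ± 0.057 SE by edgeR (adjusted p = 1.26e-05), a fold of 1.45. These values count all transcripts of the gene and do not separate its splice variants. Transcripts of Esrp1, a splicing factor that favours the longer variants in epithelia, had 0 reads in all 6 samples.

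The 250 bases before the start site of Cd44 are given as the promoter of the member with the highest level, together with those of Icam1, the textbook NF-κB target near the limit of detection, and Mcam, the member that changed most. The sequences are RefSeq's, and each matched GRCm39 exactly once. The start sites are those of the promoter set. The windows of Icam1 and Mcam lie inside the gene spans given here, which come from GENCODE, and that of Cd44 lies just before it. They are written 5′ to 3′ along the gene, and capitals mark the motifs found.
Cd44, chr2:102732011-102732260, minus strand: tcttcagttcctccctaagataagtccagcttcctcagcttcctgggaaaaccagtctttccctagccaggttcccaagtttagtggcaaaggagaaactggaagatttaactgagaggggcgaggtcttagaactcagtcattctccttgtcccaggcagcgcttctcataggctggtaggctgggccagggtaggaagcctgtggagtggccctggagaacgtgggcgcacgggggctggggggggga
Icam1, chr9:20926986-20927235, plus strand: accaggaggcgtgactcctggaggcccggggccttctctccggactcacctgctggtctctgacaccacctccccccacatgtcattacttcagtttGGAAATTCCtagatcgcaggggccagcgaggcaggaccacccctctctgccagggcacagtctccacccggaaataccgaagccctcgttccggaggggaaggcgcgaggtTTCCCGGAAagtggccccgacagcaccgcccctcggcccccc
Mcam, chr9:44045705-44045954, plus strand: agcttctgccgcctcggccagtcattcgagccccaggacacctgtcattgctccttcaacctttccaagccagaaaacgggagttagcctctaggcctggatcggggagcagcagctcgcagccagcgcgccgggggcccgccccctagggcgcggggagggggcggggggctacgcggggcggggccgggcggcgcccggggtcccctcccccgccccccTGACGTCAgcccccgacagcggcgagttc

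A set of 5 motifs was searched on both strands of these windows: the NF-κB consensus of 10 letters, the shorter GGAANNTCC, which can overlap it, TTCNNNGAA (bound by STAT factors), TGANTCA (AP-1) and TGACGTCA (CREB). They were found in 7.28%, 3.59%, 7.04%, 6.73% and 1.55% of the 32544 mouse promoter windows of the same length. The Icam1 window held GGAAATTCC at positions -153 to -145, counted from the start site, and TTCCCGGAA at -42 to -34. The Mcam window held TGACGTCA at -29 to -22. The windows of Cd44, Alcam, Nrcam and L1cam held none of the 5 motifs. Those of Alcam, Nrcam and L1cam also lie inside the GENCODE span of their gene. Except for Cd44, bases before the outermost start in GENCODE were thus not searched. The promoter set held no window for Vcam1 and Ncam1, so neither was searched for motifs. A match describes the letters only.

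Vcam1 (chromosome 3, 115903598 to 115923355, minus strand) encodes a receptor for the integrin of ITGA4 and ITGB1 on leukocytes. It had 121, 137 and 118 TPM in Ctrl replicates 1, 2 and 3. Its level in Nfkbiz KO replicates 1, 2 and 3 was 189, 183 and 200 TPM, all above the Ctrl range. Its mean rose from 125 ± 10.1 to 191 ± 8.82 TPM (SD, n = 3 each). The log2 fold change was 0.51 ± 0.058 SE by edgeR (adjusted p = 2.46e-05). Among all genes tested, 91.9% had a lower log2 fold change than Vcam1, and 92.4% a lower one than Cd44.

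Alcam (chromosome 16, 52069359 to 52274437, minus strand), whose protein binds itself and CD6 of T cells, showed the smallest of the 6 changes. It had 61.0, 64.2 and 57.3 TPM in Ctrl and 78.9, 75.4 and 77.1 TPM in Nfkbiz KO, in the order of the replicates. The groups did not overlap. The mean went from 60.8 ± 3.44 to 77.1 ± 1.74 TPM (SD, n = 3 each), and its log2 fold change was 0.23 ± 0.051 SE by edgeR (adjusted p = 0.00357). Of all genes tested, 80.0% had a lower log2 fold change.

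Ncam1 (chromosome 9, 49413436 to 49710357, minus strand) encodes the neural cell adhesion molecule, which neural and neural crest cells carry. It had 49.6, 54.5 and 50.3 TPM in Ctrl, and 33.2, 34.5 and 31.7 TPM in Nfkbiz KO. The lowest Ctrl sample was above the highest Nfkbiz KO sample. The mean fell from 51.5 ± 2.67 to 33.1 ± 1.39 TPM (SD, n = 3 each), and the log2 fold change was -0.76 ± 0.05 SE by edgeR (adjusted p = 2.22e-07). Of its reads, 95.8% mapped uniquely, the lowest share among the 6 changed genes.

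Mcam, on the same chromosome (44045504 to 44054025, plus strand), encodes the melanoma cell adhesion molecule CD146 and had the largest change. It had 8.56, 7.24 and 7.45 TPM in Ctrl and 3.35, 3.62 and 3.69 TPM in Nfkbiz KO. The groups lay well apart. The mean fell from 7.75 ± 0.707 to 3.56 ± 0.177 TPM (SD, n = 3 each). From read counts, the log2 fold change was -1.24 ± 0.12 SE by edgeR (adjusted p = 6.88e-06). Only 2.39% of all genes tested had a lower log2 fold change. These values rest on 274 to 343 reads per Ctrl sample and 105 to 158 per Nfkbiz KO sample.

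Nrcam (chromosome 12, 44375287 to 44651976, plus strand), a member of the L1 family of neural adhesion molecules, had a low level. Ctrl replicates 1, 2 and 3 had 1.42, 1.90 and 1.43 TPM, and Nfkbiz KO replicates 1, 2 and 3 had 0.841, 0.747 and 0.694 TPM. Ctrl replicate 2 was the highest sample, and the groups did not overlap. The mean fell from 1.58 ± 0.273 to 0.761 ± 0.0747 TPM (SD, n = 3 each). By read counts the log2 fold change was -1.12 ± 0.14 SE by edgeR (adjusted p = 5.54e-05). On the log2(TPM + 1) scale, which compresses low levels, it was -0.55 (adjusted p = 0.00771, limma).

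The study's own thresholds are a difference over 4, taken here as TPM, together with a fold change over 2 and an adjusted p no higher than 0.05. They were passed by 1 of the 8 genes, Mcam, which was lower. Of all genes tested 1.79% passed them, 1.03% as lower and 0.756% as higher. The difference of Mcam was -4.20 TPM, just past the threshold. Without Ctrl replicate 1, 0 of the 8 genes passed. Nrcam missed it with a difference of -0.823 TPM.

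**Figure D2:**
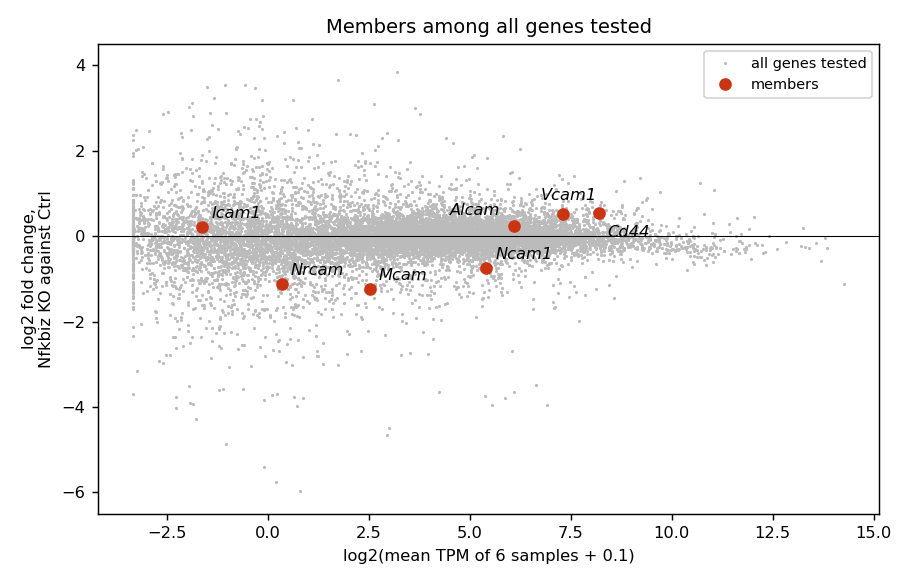
Fitted log2 fold change from read counts, knockout against control (vertical axis) against log2 of the mean TPM of the 6 samples plus 0.1 (horizontal axis) for the 14419 genes tested, with the 7 tested adhesion genes in red. Cd44, Vcam1 and Alcam lie above 0 at high levels, and Ncam1, Mcam and Nrcam lie below 0 between -0.76 and -1.24.

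Icam1 (chromosome 9, 20926672 to 20940113, plus strand), the counter-receptor of the leukocyte integrin LFA-1, had 11, 9 and 12 reads in Ctrl and 10, 12 and 16 reads in Nfkbiz KO. The groups overlapped. This was 0.202 ± 0.0389 TPM among Ctrl and 0.249 ± 0.036 TPM among knockout samples (SD, n = 3 each), and of all genes tested 6.82% had a lower mean TPM in Ctrl. Its log2 fold change was 0.21 ± 0.39 SE by edgeR (adjusted p = 0.715), so that no difference was detectable at this depth. The level of Vcam1, whose protein also binds a leukocyte integrin, was 118 to 200 TPM in the same samples.

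L1cam (chromosome X, 72897378 to 72939711, minus strand), the founding gene of the L1 family, had 6, 0 and 3 reads in Ctrl and 5, 3 and 3 reads in Nfkbiz KO. Each sample thus had at most 6 reads on this gene. A count of 0 in Ctrl replicate 2 allows up to 0.0795 CPM, the reads of a gene scaled to library size, which covers counting error only. Genes that overlap a member in the annotation took few reads, with at most 27 in any sample for those listed in the files, on Arhgap4 beside L1cam. The authors counted reads without regard to strand, so reads of overlapping genes cannot be told apart.

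The order of the levels in TPM was the same in both groups: Cd44, Vcam1, Alcam, Ncam1, Mcam, Nrcam, Icam1 and L1cam. Each was above the next in all samples of its group. The closest neighbours in Ctrl were Alcam and Ncam1, with a ratio of mean TPM of 1.18. In Nfkbiz KO, this ratio was 2.33. The ratio of Cd44 to Ncam1, both in TPM, was 4.36, 4.52 and 4.40 in Ctrl and 10.5, 10.2 and 11.7 in Nfkbiz KO.

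The summed level of the 8 genes was 458, 511 and 456 TPM in Ctrl replicates 1, 2 and 3, and 655, 649 and 685 TPM in Nfkbiz KO replicates 1, 2 and 3. Cd44 alone made up 47.2% to 48.5% of it in Ctrl and 53.4% to 54.2% in Nfkbiz KO. Ncam1, Mcam and Nrcam together made up 12.5% to 13.0% in Ctrl and 5.27% to 5.99% in Nfkbiz KO. These shares describe the samples and were not tested.

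**Figure D3:**
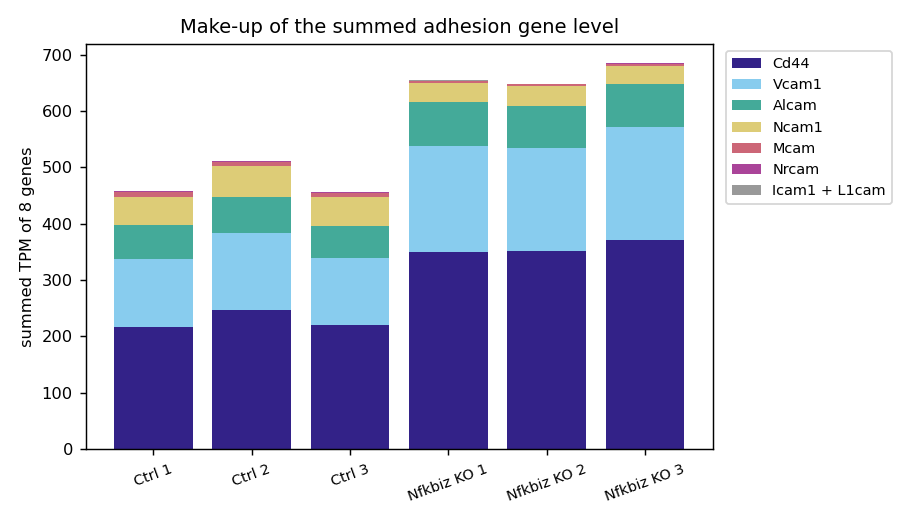
Summed TPM of the 8 adhesion genes (vertical axis) in each of the 6 samples (horizontal axis), stacked by gene. The sum is 456 to 511 TPM in Ctrl and 649 to 685 TPM in Nfkbiz KO, with a larger Cd44 layer and a thinner Ncam1 layer in Nfkbiz KO, while Icam1 and L1cam are too small to see.

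Between replicates, the level of Mcam varied with a coefficient of variation of 9.13% in Ctrl and 4.98% in Nfkbiz KO. For Cd44 it was 7.11% and 3.42%, and for Nrcam 17.3% and 9.82%. A wider spread among the Ctrl samples was also seen over all genes, where the chi-square per degree of freedom between libraries was 27.8 to 71.4 for pairs of Ctrl samples and 3.53 to 6.24 for pairs of Nfkbiz KO samples.

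Other adhesion genes of the immunoglobulin type were also split between the directions. Of 38 such genes, 25 were below 1 TPM in every sample and 19 passed the filter on low counts. Of these 19, 7 rose, 5 fell and 7 did not pass the test, with a median log2 fold change of 0.03 against -0.02 for all genes tested. The share that changed was 63.2%, against 36.6% of all genes tested. Jam2, a junctional adhesion molecule, rose from 1.33 ± 0.235 to 4.08 ± 0.203 TPM (SD, n = 3 each). Its log2 fold change from read counts was 1.49. Nectin3, a nectin of cell junctions, rose from 12.5 ± 0.821 to 22.6 ± 0.997 TPM. Nectin1 and Cadm1 rose by less, with log2 fold changes of 0.29 and 0.27. Cxadr, the receptor of coxsackievirus and adenovirus at tight junctions, had the largest change, from 6.61 ± 0.958 to 0.970 ± 0.0496 TPM (SD, n = 3 each). By read counts the log2 fold change was -2.76 ± 0.12 SE by edgeR (adjusted p = 4.36e-09). Nectin2 fell from 56.9 ± 2.92 to 24.5 ± 0.766 TPM, and F11r, which encodes the junctional protein JAM-A, from 40.1 ± 3.33 to 24.8 ± 1.09 TPM. Bsg, the abundant basigin, had a log2 fold change of -0.31. With the study's thresholds, 2 of the 19 were called, Cxadr and Nectin2, where 1.79% of all genes tested were.

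**Figure D4:**
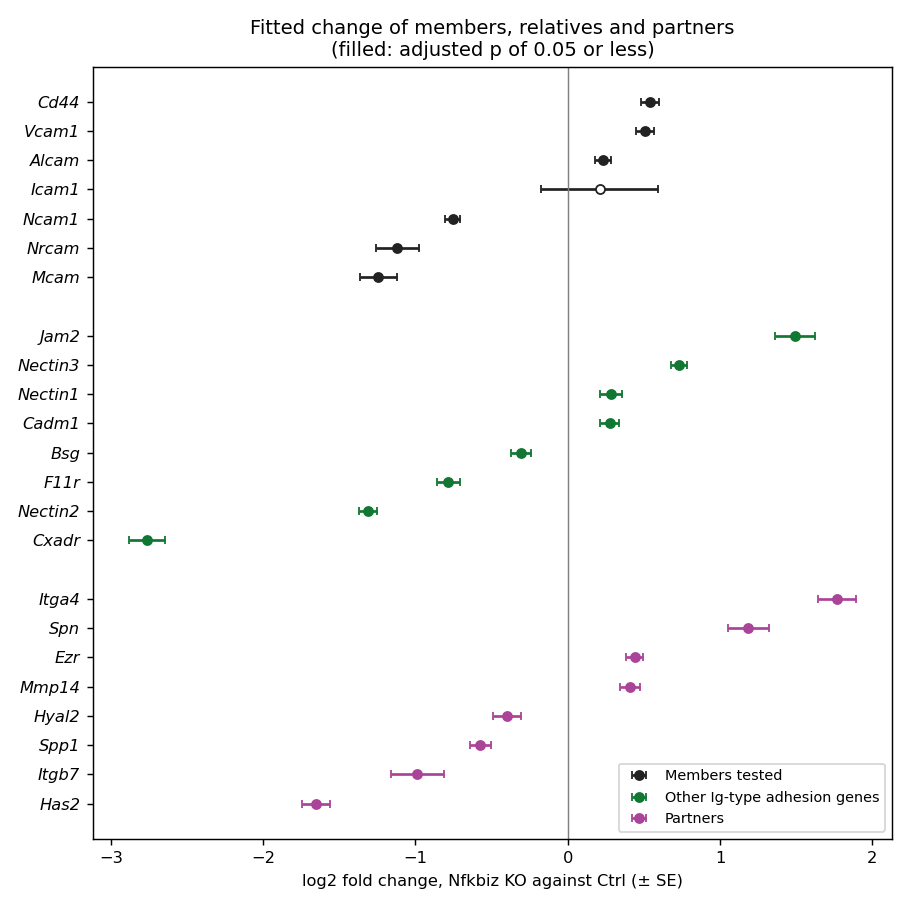
Fitted log2 fold change, knockout against control, with its standard error (horizontal axis) for the 7 tested adhesion genes (black), 8 further adhesion genes of the immunoglobulin type (green) and 8 partner genes (purple), with filled points for an adjusted p no higher than 0.05. Itga4 (1.77) and Jam2 (1.49) lie farthest to the right, Cxadr (-2.76) and Has2 (-1.66) farthest to the left, and Icam1 is the one open point.

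Partners of these molecules were listed by role, 40 genes in all, of which 30 were tested. Of the 30, 10 rose, 7 fell and 13 did not pass the test, with a median log2 fold change of 0.10. The share that changed was 56.7%, against 36.6% of all genes tested. Among 10 tested counter-receptors, 4 rose and 2 fell. Itga4, the integrin chain that pairs with Itgb1 to bind VCAM1, had 2.36, 2.68 and 1.61 TPM in Ctrl and 8.49, 8.02 and 8.23 TPM in Nfkbiz KO. Its lowest Nfkbiz KO value was above its highest Ctrl value. The log2 fold change of Itga4 was 1.77 ± 0.12 SE by edgeR (adjusted p = 3.29e-07). Itgb1, the other chain of that receptor, had 1042 to 1180 TPM in Ctrl and 1095 to 1143 TPM in Nfkbiz KO, with a log2 fold change of -0.06 (adjusted p = 0.419, same edgeR test). Itgb7, an alternative partner of Itga4, fell from 3.34 ± 0.183 to 1.79 ± 0.334 TPM (SD, n = 3 each). Spn, a sialomucin of leukocytes that can bind ICAM1, rose from 2.13 ± 0.227 to 5.15 ± 0.632 TPM. The LFA-1 chain Itgal and Cd6, the T cell receptor of ALCAM, had 0 reads in all samples.

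The linkers that tie CD44 and ICAM1 to actin are ezrin, radixin and moesin. Of 6 linker genes tested, the 3 that encode them rose, and the 3 ankyrins, which anchor the L1 family, did not pass the test. Over all genes tested, 18.2% passed as higher. Ezr rose from 37.1 ± 2.30 to 53.8 ± 1.87 TPM (SD, n = 3 each). The log2 fold changes of Ezr, Rdx and Msn from read counts were 0.44, 0.34 and 0.30.

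Among 9 tested genes of hyaluronan metabolism and binding, 1 rose and 3 fell. Over all genes tested, 18.2% passed as higher and 18.4% as lower. Has2, a hyaluronan synthase and thus a source of the CD44 ligand, fell most. It had 24.4, 30.6 and 24.6 TPM in Ctrl and 9.61, 7.71 and 9.57 TPM in Nfkbiz KO, without overlap. Its log2 fold change was -1.66 ± 0.092 SE by edgeR (adjusted p = 5.03e-08). Hyal2, a hyaluronidase, had a log2 fold change of -0.40 and passed the test on read counts, but not in limma on log2(TPM + 1) (adjusted p = 0.0716). Spp1, the gene of osteopontin, another CD44 ligand, fell from 15305 ± 878 to 11008 ± 122 TPM (SD, n = 3 each).

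Of 3 sheddase genes, Mmp14, whose membrane-bound protease cleaves CD44, rose from 161 ± 3.59 to 237 ± 4.82 TPM (SD, n = 3 each). Adam17 fell, with a log2 fold change of -0.18, and Adam10 had 0.08 and did not pass the test. Over all genes tested, 36.6% changed. The enzymes St8sia2 and St8sia4, which add polysialic acid to NCAM1, had at most 3 reads in any sample.

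The genes whose normalized counts followed those of Mcam most closely over the 6 samples were Fam193b, Anxa6 and Fabp5, with Pearson's r of 0.999, 0.998 and 0.998. The 6 samples form 2 groups, and 640 of the 10289 genes compared had r above 0.95, so these values are a description. Fam193b, Anxa6 and Fabp5 had log2 fold changes of -0.38, -0.23 and -0.52.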

How the data were processed

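Total RNA of D4M-3A cells was sequenced as paired reads in 3 Ctrl and 3 Nfkbiz KO samples. CLC Genomics Workbench was used by the authors for mapping, against GRCm39 per the methods, whereas the labels' processing notes list GRCm38. The deposited tables hold raw counts of total and of uniquely mapped reads per gene, TPM and RPKM, all as the authors made them. In each sample, 2105 to 2271 genes had reads but an RPKM of 0, so read counts hold reads that TPM and RPKM leave out.

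Total read counts were tested with edgeR 4.0.16 in R 4.3.3 (TMM, filterByExpr with a minimum count of 10, quasi-likelihood test, Benjamini-Hochberg over 14419 genes). The standard error is the log2 fold change divided by the square root of F. The procedure was tested on simulated data. A count of 0 was taken to allow 3 counts. Replicates are separate experiments per the methods. No pair of samples was a duplicate, since chi-square over degrees of freedom was 27.8 to 71.4 for Ctrl pairs and 3.53 to 6.24 for Nfkbiz KO pairs.

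The members, lists, motifs and tests were chosen with earlier results of these data known, and the motifs with the promoter sequences seen. Named genes are the members, Nfkbiz, and from each list up to 4 per direction with the largest log2 fold change among changed genes without overlap and with at least 1 TPM in a group, and the 3 genes most like the member that changed most, by Pearson's r of log2 CPM among genes with at least 4 TPM. Other genes were named after their values were seen. Alternatives were RLE factors, DESeq2 1.42.0, a likelihood-ratio test in edgeR, no filter, a minimum of 50 reads in 3 samples, limma 3.58.1 on log2(TPM + 1) and log2(TPM + 0.1), unique reads, a replicate block, other difference cut-offs and each sample left out. Coordinates come from GENCODE's annotation of GRCm39, promoters from RefSeq. Figures were drawn with matplotlib 3.10.9.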

Additional observations from a re-analysis of the deposited data

How the results depend on the processing

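The 6 changed adhesion genes, 3 higher and 3 lower, kept their direction and an adjusted p of 0.05 or less in all 15 alternative fits, and Icam1 did not pass in any of the 13 that tested it. With 1 sample left out the number was 6 to 6, and the log2 fold changes stayed at 0.51 to 0.57 (Cd44), 0.47 to 0.55 (Vcam1), 0.21 to 0.25 (Alcam), -0.77 to -0.73 (Ncam1), -1.31 to -1.17 (Mcam) and -1.19 to -0.99 (Nrcam). With limma on TPM, the median over all genes moved to 0.06 and 0.08, and Cd44 had 0.65 and Alcam 0.34. The number past the study's thresholds depended most on the settings. It was 1, but 0 in limma on log2(TPM + 1) and with the difference in RPKM, 0 to 1 with 1 sample left out, 2 without a difference cut-off, and 3 when a fold of 1.5 and an adjusted p up to 0.1 sufficed. Samples with the same replicate number did not deviate together (correlations across genes of 0.037, -0.023 and 0.026). With the replicate block 6 of the 8 genes changed, and 5087 of all genes. Of all genes, 5274 changed, and 3798 to 5533 with 1 sample left out. Hyal2 also missed the threshold in limma on log2(TPM + 0.1), at -0.29 (adjusted p = 0.0761). At 9 to 16 reads, depth limits what can be said of Icam1.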

Other observations

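Icam1 lies next to genes with many reads on its upstream side. On chromosome 9 of GRCm39, S1pr2 and Mrpl4 upstream had 38.6 to 46.0 TPM and 54.2 to 67.0 TPM over the 6 samples. The genes Icam1, Icam4 and Icam5, which follow each other there, stayed below 1 TPM in every sample. Zglp1, which lies between Icam5 and Fdx2, and Gm49373, which overlaps Zglp1 and Fdx2, had at most 0.936 and 1.22 TPM. Fdx2, farther downstream, had 58.9 to 65.9 TPM. Icam4 had 1 to 4 reads and was not tested. Icam5, an adhesion molecule of neurons named after its values were seen, had 26, 16 and 18 reads in the Ctrl samples, against 43, 33 and 47 in the knockout samples. The fitted fold was 2.00 (adjusted p = 0.0311, edgeR quasi-likelihood, higher in 3 of 3 Nfkbiz KO samples than in any Ctrl sample). In 7 of 14 alternatives the adjusted p of Icam5 was above 0.05, and over all 14 it lay between 0.00895 and 0.134 (edgeR, DESeq2 or limma).

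Of 7 endothelial markers, 2 were tested. The level of Egfl7 was 2.31 ± 0.788 TPM among Ctrl samples, against 1.88 ± 0.207 TPM among knockout samples (SD, n = 3 each), and it did not pass the test (log2 fold change -0.40, adjusted p = 0.245 by edgeR). The other, Cdh5, the cadherin of endothelial cells, was higher. Its reads were 33, 18 and 39 in the Ctrl samples, against 72, 83 and 76 in the knockout samples. The log2 fold change was 1.34 (adjusted p = 0.00228, edgeR quasi-likelihood). Both genes were named after their values were seen.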
